A study of Mus musculus with 9 samples.

Results

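The 6 genes described here encode intermediate filament proteins of the kidney: the keratins Krt7, Krt8, Krt18, Krt19 and Krt20, and vimentin (Vim). They were taken by name, through their Entrez gene numbers (110310, 16691, 16668, 16669, 66809 and 22352 in that order), as 6 of the 17963 genes in the deposited expression table, and all 6 passed the filter on low counts. RNA was sequenced from kidney cortex of wild-type mice on day 4, in 3 groups of 3 libraries. Control mice had saline by injection into the peritoneum and pure water by gavage, and the cisplatin group had cisplatin, a platinum chemotherapy drug that injures kidney tubules, with the same water. The remaining group had cisplatin together with Yishen Jiangzhuo decoction (YSJZD), a herbal medicine given by gavage. The labels used here state no dose, strain, sex or age. They do not say whether separate mice gave the libraries of a group, and the p-values reflect how these samples scatter, which may be technical in part.

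Keratins build filaments as pairs of an acidic type I chain (Krt18, Krt19, Krt20) with a basic type II chain (Krt7, Krt8), and an unpaired chain is usually degraded. Krt8 and Krt18 are the first keratins of simple epithelia, Krt7 and Krt19 mark ducts, and Krt20 is best known from intestinal lining and the umbrella cells of the urothelium. In the healthy kidney Krt7, Krt8, Krt18 and Krt19 lie mainly in the collecting duct. Vimentin is the filament of fibroblasts, endothelium, podocytes and leukocytes, and injured or regenerating tubule cells are known to take up both keratins and vimentin.

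Each library held 15029286 to 16690482 expected counts. Together, 16 proximal tubule markers took 7.31% to 9.30% of the scaled library total in control, 0.464% to 0.698% with cisplatin and 1.94% to 3.91% with YSJZD. Of these markers 15 fell with cisplatin, and all 16 were higher with YSJZD than with cisplatin alone. The shares over all tested genes were 26.0% lower with cisplatin and 17.4% higher with YSJZD. Cisplatin replicate 3 stood apart from the other cisplatin libraries in its markers of other cell types: its endothelial sum was 348 CPM, the count relative to the scaled library total, against 693 and 792, its fibroblast and pericyte sum 322 CPM against 799 and 954, and its urothelium sum 94.4 CPM against 11.2 and 3.43.

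Cisplatin raised 5 of the 6 genes and lowered none, where a gene was called at an adjusted p under 0.05 in edgeR's quasi-likelihood test with Benjamini-Hochberg adjustment over 13954 tested genes. Of all tested genes 54.6% were called in that comparison, 28.6% as higher and 26.0% as lower. The libraries of the groups did not overlap for the same 5 genes, all higher with cisplatin, as for 32.4% of all tested genes. With YSJZD added to cisplatin, 5 of the 6 were lower than with cisplatin alone and none was higher, against 35.4% of all genes called, 17.4% higher and 18.0% lower. Those 5 also lay below the cisplatin libraries without overlap, as did 23.6% of all tested genes. Between YSJZD and control 3 of the 6, Krt18, Krt19 and Krt20, were called, all higher, against 19.3% of all genes called, 9.93% higher and 9.37% lower. All but Vim lay above control without overlap, 5 of 6, beside 20.8% of all tested genes. The median log2 fold change of the 6 genes was 3.63, -2.16 and 1.29 in these comparisons, beside 0.04, -0.01 and 0.01 over all tested genes. Each called change exceeded the 2-fold threshold of the study's design text. The 3 comparisons share groups: cisplatin libraries enter both comparisons with cisplatin, and control libraries both comparisons with control. In whole tissue, fewer cells of a type and less RNA per cell cannot be told apart, nor can more cells and more RNA per cell.

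**Figure D1:**
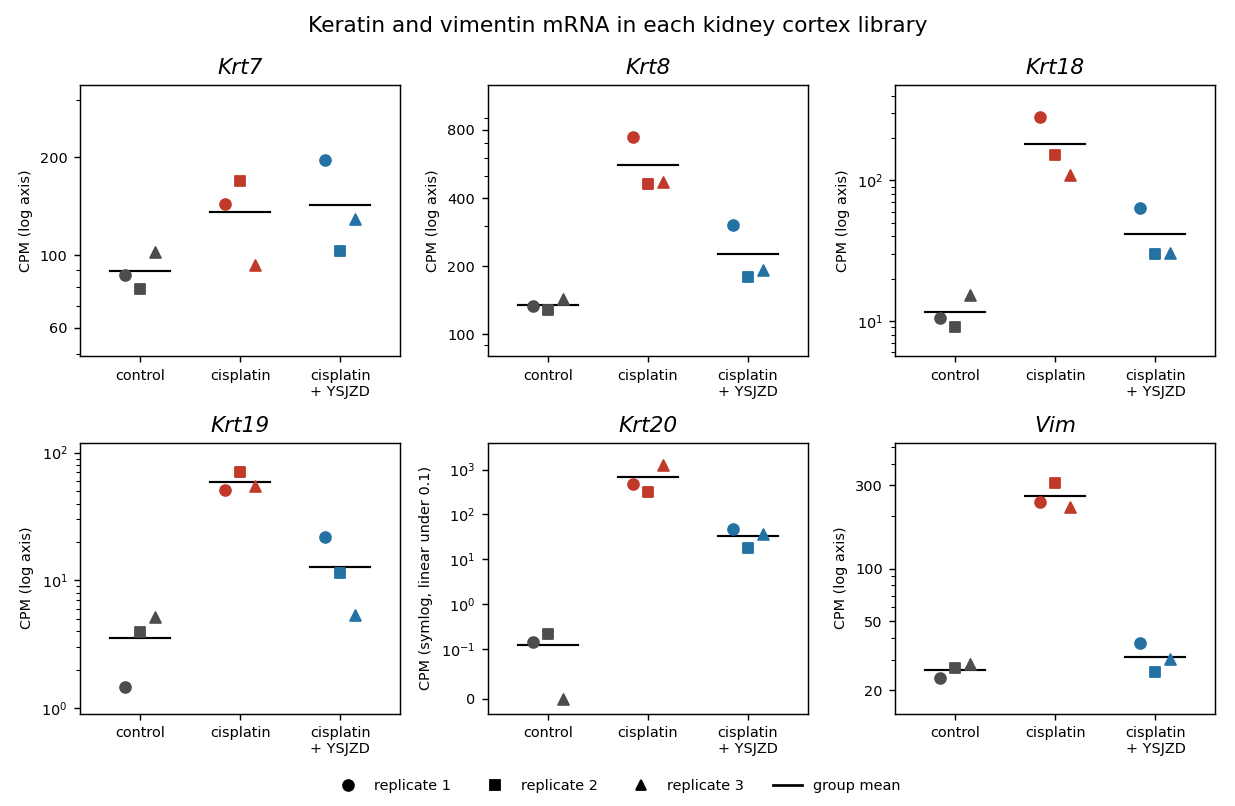
CPM of each gene in each of the 9 libraries on a log axis (for Krt20 the axis is linear under 0.1 so that a count of 0 can be shown), with symbols for the replicates and a bar for the group mean. Cisplatin libraries lie above all control libraries for Krt8, Krt18, Krt19, Krt20 and Vim, and the Krt7 libraries of these groups overlap.

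Among the type II keratins Krt8 rose and Krt7 was not called. Krt8, the usual partner of Krt18 in simple epithelia, stood at 133, 128 and 143 CPM in control replicates 1 to 3, at 744, 460.3 and 473 CPM with cisplatin, and at 304, 179.5 and 193 CPM with YSJZD. No group overlapped another: every cisplatin library was highest and every YSJZD library lay between. The mean rose from 135 ± 7.43 CPM (SD, n = 3) to 559 ± 160.4 CPM with cisplatin, a log2 fold change of 2.05 ± 0.25 (SE, adjusted p = 7.78e-05). With YSJZD it was 226 ± 68.4 CPM, -1.31 ± 0.24 against cisplatin (adjusted p = 0.00274). The difference between YSJZD and control was 0.75 ± 0.24 (adjusted p = 0.0538). That last value lies at the threshold and was called under several alternatives, with 0.72 in DESeq2 (adjusted p = 0.0198) and 0.76 in a fit of the 6 libraries compared (adjusted p = 0.0299).

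Krt7, a type II keratin of ducts and urothelium, was at 87.0, 78.7 and 102 CPM in control, 144, 169 and 93.5 CPM with cisplatin, and 196, 103 and 129 CPM with YSJZD. Cisplatin replicate 3 fell inside the control range while the other cisplatin libraries exceeded it. The log2 fold change was 0.60 ± 0.26 with cisplatin (adjusted p = 0.0777). It was called without cisplatin replicate 3 (0.80, adjusted p = 0.0185), without YSJZD replicate 1 (0.60, adjusted p = 0.0401) and with library totals as the only scaling (0.84, adjusted p = 0.0301). Between YSJZD and cisplatin the difference was 0.07 ± 0.26 (adjusted p = 0.848), with means of 143 ± 47.8 and 135 ± 38.3 CPM (SD, n = 3), and its sign turned without cisplatin replicate 3 (-0.14) or without YSJZD replicate 1 (-0.22). Against control, YSJZD gave 0.67 ± 0.26 (adjusted p = 0.103), although no YSJZD library was below the highest control.

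All 3 type I keratins rose with cisplatin. Krt18, which pairs with Krt8, was at 10.6, 9.03 and 15.2 CPM in control, 280.5, 152 and 110.0 CPM with cisplatin, and 63.5, 29.9 and 30.5 CPM with YSJZD. The 3 groups did not overlap. The log2 fold change was 3.96 ± 0.43 with cisplatin (adjusted p = 4.34e-05) and -2.13 ± 0.40 between YSJZD and cisplatin (adjusted p = 0.00284). Krt18 was 1.83 ± 0.40 above control with YSJZD (adjusted p = 0.0113), a call that was lost without control replicate 1 (adjusted p = 0.0540) and was at the threshold without control replicate 2 (adjusted p = 0.05).

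Krt19, the smallest keratin, which lacks the usual tail domain, was at 1.46, 3.93 and 5.17 CPM in control, 51.0, 70.6 and 55.0 CPM with cisplatin, and 21.8, 11.4 and 5.40 CPM with YSJZD. Every cisplatin library was above every other library, and the lowest YSJZD library was just above the highest control. The log2 fold change with cisplatin was 4.05 ± 0.53 (adjusted p = 0.000133), and YSJZD differed from cisplatin by -2.19 ± 0.47 (adjusted p = 0.00597), or -2.81 without YSJZD replicate 1. The rise of 1.86 ± 0.51 over control with YSJZD (adjusted p = 0.0295) was not called without control replicate 1 (1.49, adjusted p = 0.0945), control replicate 2 (1.94, adjusted p = 0.0774) or YSJZD replicate 1 (1.24, adjusted p = 0.111), nor in limma-voom (1.80, adjusted p = 0.0775). The table lists Krt19 under 2 RefSeq transcripts. The minor one took 0%, 0% and 4.03% of Krt19 counts in control, 19.04%, 20.6% and 19.9% with cisplatin, and 14.9%, 7.30% and 21.3% with YSJZD. RSEM divides shared reads between transcripts by model, and control counts of Krt19 were low.

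Krt20 went from near absence to levels per length that overlapped those of Krt8. It had 2, 3 and 0 counts in the control libraries (0.146, 0.219 and 0 CPM), 469.6, 313 and 1244 CPM with cisplatin, and 46.2, 17.3 and 36.7 CPM with YSJZD. The groups did not overlap, and cisplatin replicate 3 stood at more than both other cisplatin libraries together. Summed over libraries the ratio of cisplatin to control was 5589 (95% exact counting interval 2395 to 17220, counting error only), from 34179 against 5 counts. The fitted log2 fold change was 12.39 ± 0.91 (adjusted p = 4.45e-06). With so few control counts it moved to 13.09 when control replicate 2 was left out, to 11.79 when control replicate 3 was, and to 11.44 with a larger prior count. Leaving out cisplatin replicate 3 gave 11.60. YSJZD differed from cisplatin by -4.34 ± 0.56 (adjusted p = 0.000459), or -3.55 without cisplatin replicate 3. Against control the YSJZD libraries held 1674 counts to 5, a ratio of 289.5 (interval 124 to 893), and a fitted 8.06 ± 0.89 (adjusted p = 0.000346), which became 8.76 and 7.46 when control replicate 2 or control replicate 3 was left out, and 7.11 with the larger prior count.

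Because Krt20 is a urothelial gene and cortex can carry renal pelvis, urothelium markers were read in the same libraries. Of the 12 markers 9 were tested and none was called in any comparison of the main fit. Over all tested genes 54.6% were called with cisplatin against control. The share was 35.4% for YSJZD against cisplatin and 19.3% for YSJZD against control. The markers were uneven within groups, with Upk1b for example at 0 to 13.3 CPM in the cisplatin libraries. The missing calls therefore do not show that urothelium was unchanged. Without cisplatin replicate 3, 2 were called lower with cisplatin and 1 lower with YSJZD, each against control. Over the alternatives, at most 1 of these markers was called higher with cisplatin than in control. Their sum was 5.53 to 44.8 CPM in control, where Krt13 and Krt17 were at 0, and was highest in cisplatin replicate 3, the library with most Krt20. In cisplatin replicate 2 the uroplakins Upk1b, Upk2 and Upk3a, the plaque proteins that define umbrella cells, had 0 counts, while Krt20 stood at 313 CPM. Control replicate 3 had a urothelium sum of 44.8 CPM, with Upk3a at 3.05 CPM, and 0 counts of Krt20. The YSJZD libraries had urothelium sums of 14.7, 9.19 and 2.73 CPM beside Krt20 at 46.2, 17.3 and 36.7 CPM. The part of urothelium in the Krt20 values was not tested.

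**Figure D2:**
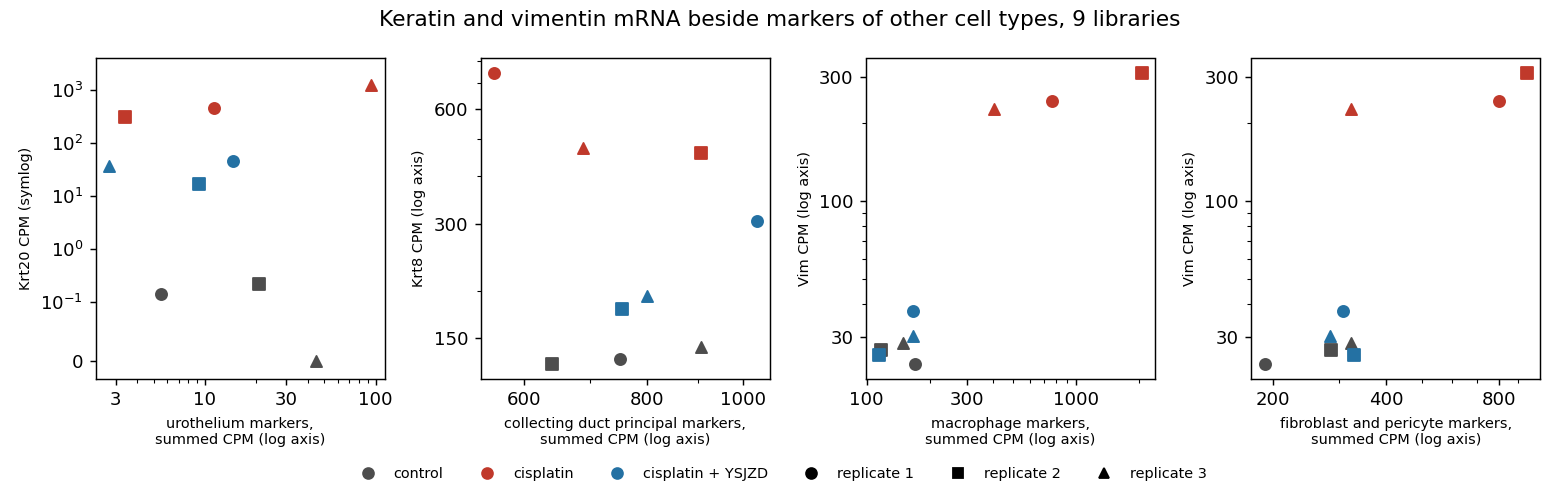
CPM of Krt20, Krt8 and Vim (vertical, log axes; symlog for Krt20) against the summed CPM of markers of another cell type (horizontal, log axes) in each of the 9 libraries, by group colour and replicate symbol. Krt20 is at 0 in the control library with a urothelium sum of 44.8 CPM. In cisplatin libraries it is at 313 CPM beside a sum of 3.43 CPM, and highest, at 1244 CPM, beside the highest sum, 94.4 CPM. Vim is at 226 CPM in the cisplatin library whose fibroblast sum equals the highest control. Over cisplatin replicates 1 to 3 Vim (242, 310.3 and 226 CPM) has the order of the macrophage (770, 2059 and 405 CPM) and fibroblast sums (799, 954 and 322 CPM). The part of these cells was not tested.

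Vim rose with cisplatin and was near control with YSJZD. It stood at 23.6, 26.8 and 28.5 CPM in control, 242, 310.3 and 226 CPM with cisplatin, and 37.7, 25.6 and 30.2 CPM with YSJZD. Cisplatin libraries were far above all others, and YSJZD and control libraries overlapped. The log2 fold change was 3.30 ± 0.19 with cisplatin (adjusted p = 1.98e-06), -3.06 ± 0.19 between YSJZD and cisplatin (adjusted p = 4.18e-05), and 0.24 ± 0.18 between YSJZD and control (adjusted p = 0.382). Every one of these calls, and the missing one, was the same under every alternative run.

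Vim is also carried by other cells, whose markers moved with it in part. The counts below stand beside 28.6% of all tested genes that rose and 26.0% that fell with cisplatin. Those of endothelial and podocyte markers lie near or below these shares. Macrophage markers rose in 9 of 15 tested genes with cisplatin and fell in none, with a median log2 fold change of 2.07. Their sum was 117 to 170 CPM in control, 770, 2059 and 405 CPM with cisplatin, and 115 to 166 CPM with YSJZD. Fibroblast and pericyte markers rose in 8 of 13 (5 without cisplatin replicate 2 or without control replicate 1) and fell in none. Their sum was 189.5 CPM or more in control and 284 to 329 CPM with YSJZD. In cisplatin replicate 3 their sum, 321.8 CPM, was that of the highest control, 321.7 CPM, while Vim was 226 CPM there. Cisplatin replicates 1 and 2 had fibroblast and pericyte sums of 799 and 954 CPM. Among the cisplatin libraries Vim and the macrophage and fibroblast sums were all highest in replicate 2 and lowest in replicate 3. Endothelial markers rose in 1 and fell in 4 of 13 (with single libraries left out, 0 to 3 and 2 to 5, the 3 that rose being without cisplatin replicate 3), and their sum was 573 to 707 CPM in control and 337 to 386 CPM with YSJZD. Podocyte markers rose in 3 and fell in 1 of 9 (3 and 2 without cisplatin replicate 2), with sums of 237 to 315 CPM in control and 227 to 382 CPM with cisplatin. The 11 neutrophil markers, of which 7 passed the filter, had sums of 1.38 to 1.75 CPM in control, 38.5, 102 and 84.9 CPM with cisplatin, and at most 8.82 CPM with YSJZD. Elane and Camp were at 0 in control, and Mpo and Elane with cisplatin. Mesothelium markers, from the lining of the capsule, rose in 2 and fell in 1 of 5 tested with cisplatin, with a median log2 fold change of 0.64. Among the 2 was Msln (3.95, adjusted p = 0.00251), which differed by -4.14 between YSJZD and cisplatin (adjusted p = 0.00428). The sums of all 9 listed mesothelium markers were 193 to 212 CPM in control and 79.0 to 86.6 CPM with cisplatin. The part of these cells in the change of Vim was not tested.

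Krt7, Krt8, Krt18 and Krt19 share the collecting duct, whose markers did not rise as a list. Over all tested genes 28.6% rose and 26.0% fell with cisplatin. Of 12 principal cell markers none rose and 5 fell with cisplatin, and the median log2 fold change was -0.15 (0.07 with library totals as the only scaling, and 3 higher with 3 lower without control replicate 3). Their sum was 640.0 to 906 CPM in control, 559.5 to 906 CPM with cisplatin and 754 to 1032 CPM with YSJZD, and these ranges overlap. Aqp2, the vasopressin-regulated water channel, was at 279 ± 85.3 CPM with cisplatin against 151 ± 73.9 CPM (0.88 on the log2 scale, adjusted p = 0.0992), and was called without control replicate 3 (1.33, adjusted p = 0.0299). Hsd11b2, which shields the mineralocorticoid receptor from cortisol and corticosterone, fell by 1.49 on the log2 scale (adjusted p = 0.0146). Scnn1a, a subunit of the epithelial sodium channel, was at 170.0 CPM in both groups. Intercalated cell markers fell in 5 of 10 and rose in 1 (2 without cisplatin replicate 1, none without cisplatin replicate 2 or control replicate 3). The part of collecting duct cells in the keratin changes was not tested.

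**Figure D3:**
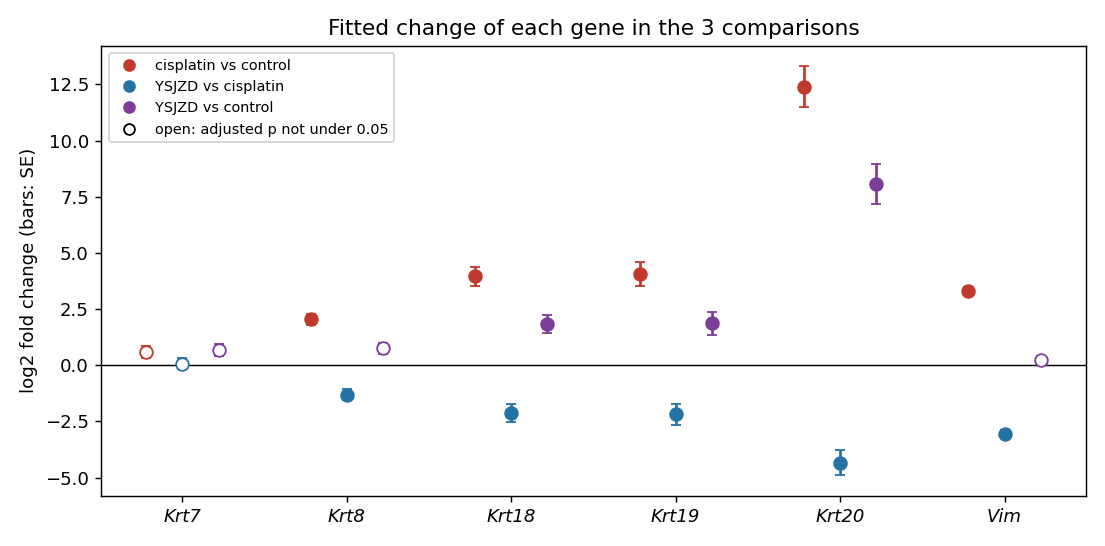
Fitted log2 fold change with its standard error for each gene and comparison, filled where the adjusted p was under 0.05 and open otherwise. Krt20 has the largest change in each comparison (12.39, -4.34 and 8.06), Vim with YSJZD is 0.24 from control, and Krt7 is open in all 3.

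The excess over control in the YSJZD group was set against that in the cisplatin group for each gene, all on day 4. As a share of the cisplatin group's excess, the YSJZD group's excess was 21.5% for Krt8, 17.5% for Krt18, 16.9% for Krt19, 4.93% for Krt20 and 2.08% for Vim. For Krt7, whose change with cisplatin was not called, it was 116%, because the YSJZD mean was above the cisplatin mean. With single libraries left out, a setting added after the data had been seen, the shares ranged from 12.2% to 27.4% for Krt8, 10.97% to 24.8% for Krt18, 8.78% to 23.6% for Krt19, 3.89% to 8.51% for Krt20 and 0.687% to 3.27% for Vim. The lowest values of Krt8, Krt18, Krt19 and Vim came without YSJZD replicate 1, and the highest of Krt20 without cisplatin replicate 3. For Vim the highest came without YSJZD replicate 2, and Krt7 ranged from 58.0% without YSJZD replicate 1 to 181% without cisplatin replicate 2. These shares are ratios of group means in CPM and carry no test, so no order among the genes is drawn from them.

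Whether pairs of genes changed by unequal amounts was tested on the log2 ratio of their FPKM values (the deposited per-length scale) with exact two-sided permutation tests, which cannot go below 0.1 with 3 libraries a group. Over the 15 ratio comparisons the adjusted value at that floor is 0.136, so none could pass 0.05. The ratio Krt8/Krt18 was 1.87 ± 0.27 lower on the log2 scale with cisplatin than in control, and 0.80 ± 0.24 higher with YSJZD than with cisplatin. Between YSJZD and control it differed by -1.06 ± 0.22, and the libraries of the groups were separate in each comparison (exact p = 0.1). For Krt7/Krt8 the cisplatin libraries were separate from control (-1.45 ± 0.31) and from YSJZD (1.38 ± 0.31), each at exact p = 0.1. The YSJZD and control values of that ratio differed by -0.08 ± 0.09 (exact p = 0.5).

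Vim/Krt8 was 1.28 ± 0.31 higher with cisplatin than in control and differed by -1.75 ± 0.32 between YSJZD and cisplatin. Between YSJZD and control the difference was -0.48 ± 0.12, with separate libraries each time (exact p = 0.1). Krt20/Krt18 was 8.73 ± 1.62 higher with cisplatin and 6.65 ± 1.40 higher with YSJZD than in control (exact p = 0.1 for each). Both values depend on the constant of 0.01 FPKM added to each level, since Krt20 was at 0 in control replicate 3: they were 7.01 and 4.93 with 0.1 FPKM, and 7.38 and 5.30 without control replicate 3. Between YSJZD and cisplatin the ratio differed by -2.09 ± 0.93 (exact p = 0.1), or -1.22 without cisplatin replicate 3. Krt19/Krt18 did not separate the groups, at 0.50 ± 0.69 (exact p = 0.5), -0.33 ± 0.57 (exact p = 0.5) and 0.17 ± 0.60 (exact p = 0.8) in the same 3 comparisons.

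On the FPKM scale the sum of the 5 keratins was 143 ± 21.7 in control, 1068 ± 210.2 with cisplatin and 310 ± 106 with YSJZD (SD, n = 3). Among these 5, type II mRNA outweighed type I mRNA 14.5, 12.6 and 9.55 times in the control libraries. The ratio of type II to type I was 1.03, 1.10 and 0.423 with cisplatin, and 3.34, 4.18 and 4.15 with YSJZD. No group overlapped another in this ratio. The log2 difference was -3.94 ± 0.48 between cisplatin and control, 2.31 ± 0.46 between YSJZD and cisplatin, and -1.64 ± 0.21 between YSJZD and control, each at exact permutation p = 0.1, the smallest possible, and this ratio was added after the data had been seen. Krt20 alone made up 24.1%, 23.1% and 58.6% of the keratin sum in the cisplatin libraries, 4.31% to 7.97% with YSJZD and at most 0.084% in control. With Krt20 left out of the type I chains the ratio was 9.55 to 14.6 in control, 2.03 to 2.54 with cisplatin and 4.57 to 7.04 with YSJZD, so that cisplatin libraries were still lowest. Neither form of the ratio includes the other keratins of the table. Their FPKM summed to 7.86, 10.34 and 13.27 in the control libraries, beside type I sums of 8.33, 9.66 and 15.89. The control ratio therefore holds for these 5 genes only.

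**Figure D4:**
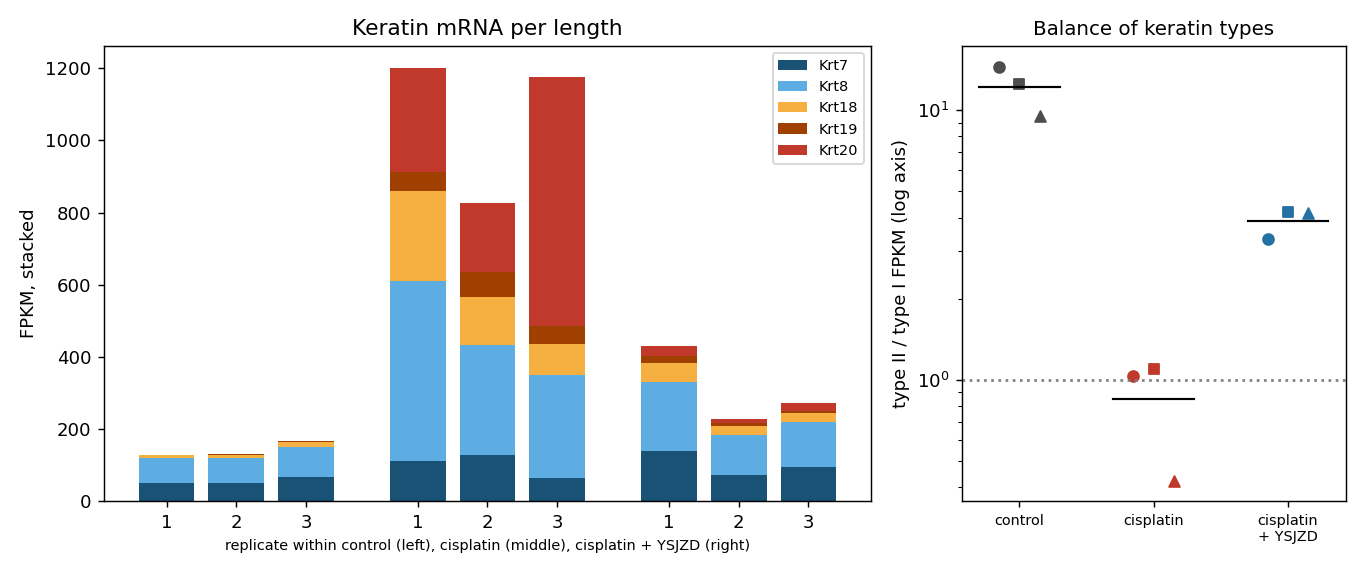
Left, FPKM of the 5 keratins stacked for each library, with replicates 1 to 3 of control, cisplatin and cisplatin with YSJZD from left to right. Right, the ratio of type II (Krt7, Krt8) to type I (Krt18, Krt19, Krt20) FPKM per library on a log axis, with group means as bars and a dotted line at equality: control libraries lie at 9.55 to 14.5, cisplatin libraries at 0.423 to 1.10 and YSJZD libraries at 3.34 to 4.18.

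The order of the 6 genes per length changed with it. In control the mean FPKM was highest for Krt8 (74.3 ± 7.70), then Krt7 (56.9 ± 10.2), Vim (14.3 ± 2.15), Krt18 (8.54 ± 2.80), Krt19 (2.69 ± 1.58) and Krt20 (0.06 ± 0.06), and no neighbours in this order overlapped. With cisplatin the FPKM order was Krt20 (389.9 ± 264), Krt8 (363 ± 119), Vim (165 ± 34.1), Krt18 (157 ± 83.6), Krt7 (102 ± 32.8) and Krt19 (57.2 ± 11.4), and only Krt8 and Vim of these neighbours did not overlap. With YSJZD it was Krt8 (141 ± 42.4), Krt7 (103 ± 34.5), Krt18 (34.2 ± 15.8), Krt20 (19.3 ± 8.60), Vim (19.2 ± 3.81) and Krt19 (11.7 ± 7.50), where only Krt7 and Krt18 did not overlap.

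The bases ahead of the annotated starts of Krt20, Vim and Krt7 are shown because they are the strongest riser, the gene nearest to control with YSJZD and the gene that was not called. RefSeq's promoter table, on GRCm38.p6, matched 5 of the 6 genes, all but Krt19. The 250 bases upstream of the start are at chr11:99438154-99438403 (minus strand) for Krt20, chr2:13574061-13574310 (plus strand) for Vim and chr15:101412153-101412402 (plus strand) for Krt7, each written 5′ to 3′ along the gene. Capitals mark matches, on either strand, to 4 motifs. The core promoter element called the TATA box was searched as TATAAA. The upstream element named after its own letters was searched as CCAAT. The GC box, bound by Sp1-type factors, was searched as GGGCGG. The core that TEAD factors bind was searched as GGAATG.
Krt20: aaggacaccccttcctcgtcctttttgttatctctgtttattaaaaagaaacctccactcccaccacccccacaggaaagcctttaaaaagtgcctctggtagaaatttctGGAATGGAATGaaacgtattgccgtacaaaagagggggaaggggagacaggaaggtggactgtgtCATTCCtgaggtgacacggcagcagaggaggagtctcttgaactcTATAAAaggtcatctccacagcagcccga
Vim: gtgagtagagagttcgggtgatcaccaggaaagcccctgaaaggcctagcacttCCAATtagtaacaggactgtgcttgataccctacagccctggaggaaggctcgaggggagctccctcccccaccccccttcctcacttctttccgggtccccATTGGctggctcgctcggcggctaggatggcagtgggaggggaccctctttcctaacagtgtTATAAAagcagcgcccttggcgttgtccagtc
Krt7: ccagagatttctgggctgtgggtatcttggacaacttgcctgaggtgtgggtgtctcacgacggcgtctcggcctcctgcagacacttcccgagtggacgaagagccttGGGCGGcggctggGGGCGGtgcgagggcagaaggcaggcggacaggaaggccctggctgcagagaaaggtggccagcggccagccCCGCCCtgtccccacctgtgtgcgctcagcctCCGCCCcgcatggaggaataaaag
Krt20 holds a TATAAA 29 bases ahead of its start and 3 matches to GGAATG, of which the first pair share bases, and 48% of its bases are G or C. Vim holds a TATAAA 32 bases ahead and 2 CCAAT matches. Krt7 holds 4 GGGCGG matches and no TATAAA, with 66% G or C. Krt8 and Krt18 hold none of these, and none of the 5 promoters holds an AP-1 motif (TGA and TCA around 1 base of any kind) or a STAT motif (TTC and GAA around 3 bases of any kind). Of 32851 mouse promoters of this length, 12.4% hold TATAAA, 33.8% CCAAT, 32.7% GGGCGG, 12.6% GGAATG, 6.75% the AP-1 motif and 7.02% the STAT motif. A match describes letters in this window and is not a measured binding site.

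Of 33 other keratins in the table only 7 passed the filter. With cisplatin 2 rose (Krt12 and Krt23) and 1 fell (Krt10), and the median log2 fold change was 1.55, or -0.29 without cisplatin replicate 3. These counts stand beside 28.6% higher and 26.0% lower calls over all tested genes. Krt12, a type I keratin of the cornea, had 0 counts in all control libraries, 117, 83 and 95 counts with cisplatin, and 6, 2 and 3 counts with YSJZD. Its summed level was at least 80.4-fold higher with cisplatin than a floor of 3 counts over the control group, and its fitted log2 difference between YSJZD and cisplatin was -4.62 ± 0.45 (adjusted p = 0.000275). Krt23 was at 3.82 ± 0.168 CPM with cisplatin against 0.934 ± 0.247 CPM (2.02 ± 0.40, adjusted p = 0.00176). With YSJZD it was at 1.76 ± 0.776 CPM, a difference of -1.11 ± 0.38 from cisplatin (adjusted p = 0.0427) that was lost in 10 of the alternatives. Krt10, an epidermal type I keratin, fell by 0.98 on the log2 scale with cisplatin (adjusted p = 0.00908).

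The basal keratins Krt5 and Krt15 were not called and had their highest values in cisplatin replicate 3, at 15.8 and 12.9 CPM against 1.74 CPM or less in the other cisplatin libraries. Replicate 3 is also the library with the highest urothelium sum, a list that includes both genes. In the RefSeq order of GRCm38.p6, Krt12 and Krt23 are the direct neighbours of Krt20 and Krt10 lies beyond Krt12, which was looked up after the values were seen. Krt8 and Krt18 also lie side by side, and Eif4b, a translation factor on the other side of Krt18, was at 0.18 ± 0.12 with cisplatin (adjusted p = 0.222).

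Most of the other filament genes that could be tested rose with cisplatin. Of 15 filament genes outside the keratins and Vim 7 passed the filter, of which 5 rose and none fell. Over all tested genes 28.6% rose and 26.0% fell, and 18.0% were lower with YSJZD than with cisplatin. Lmna, the nuclear lamin A/C, went from 65.2 ± 5.06 to 190.0 ± 29.1 CPM (1.54 ± 0.23, adjusted p = 0.000284), and Nes, the progenitor filament nestin that copolymerizes with vimentin, from 15.8 ± 0.933 to 40.7 ± 14.7 CPM (1.37 ± 0.26, adjusted p = 0.00129). Lmnb1, a lamin B chain, rose by 0.83 ± 0.27 (adjusted p = 0.0252), a call that was lost on leaving out cisplatin replicate 1 (0.76) or 2 (0.75), or control replicate 1 (0.59), and Lmnb2 was at -0.23 ± 0.18 (adjusted p = 0.286). With YSJZD 3 of the 7 were lower than with cisplatin, among them Nes at 11.7 ± 2.22 CPM (-1.80 ± 0.26, adjusted p = 0.000818). Lmna was the 1 gene called above control with YSJZD, at 140.0 ± 48.8 CPM (1.10 ± 0.23, adjusted p = 0.00798). This is 1 of 7 tested, beside 9.93% of all tested genes called higher in that comparison. That count was 2 without cisplatin replicate 1, cisplatin replicate 2, cisplatin replicate 3 or control replicate 3, and 3 without YSJZD replicate 2.

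The junctions that anchor keratin were read from 2 lists. Of 15 tested cytolinkers and desmosome genes 9 rose and 2 fell with cisplatin, where 28.6% and 26.0% of all tested genes did. Plec, the linker plectin, rose by 1.53 ± 0.24 on the log2 scale (adjusted p = 0.00037), Pkp4, a plakophilin relative, fell by 0.94 (adjusted p = 0.000152), and Dst, the linker dystonin, was not called (-0.40 ± 0.17, adjusted p = 0.0625), except without control replicate 1 (-0.54) and in DESeq2 (-0.41). Jup, the desmosomal plakoglobin, rose by 0.44 ± 0.15 (adjusted p = 0.0325), which was lost without control replicate 1 (0.42), control replicate 2 (0.40) or cisplatin replicate 1 (0.38). With YSJZD against cisplatin 2 were higher and 4 lower, 6 of 15 beside 35.4% of all genes, and these counts changed with single libraries. The lower count was 1 without cisplatin replicate 1, YSJZD replicate 2 or YSJZD replicate 3, and 6 without YSJZD replicate 1 or control replicate 3. The higher count was 1 when any 1 of those 5 libraries was left out, and also without cisplatin replicate 2 or control replicate 2. Of 9 hemidesmosome and laminin receptor genes, which tie keratin to the basement membrane, 8 rose and 1 fell with cisplatin, and 5 were lower and none higher with YSJZD than with cisplatin. Over all tested genes 18.0% were lower and 17.4% higher in the latter comparison. Itga3, the integrin alpha 3 chain, was at 48.3 ± 9.51 CPM in control, 387 ± 117 CPM with cisplatin (3.00 ± 0.27, adjusted p = 1.48e-05) and 92.1 ± 24.8 CPM with YSJZD (-2.07 ± 0.26 against cisplatin, adjusted p = 0.000417). Itgb1, the common integrin beta chain, rose by 1.03 ± 0.13 with cisplatin (adjusted p = 0.000109), and Cd151, a tetraspanin bound to these integrins, by 1.18 ± 0.25 (adjusted p = 0.00258). Itga6 rose by 0.61 ± 0.19 (adjusted p = 0.0212) but not without control replicate 1 (0.53), control replicate 3 (0.51) or cisplatin replicate 3 (0.47). Between YSJZD and control 4 of the 9 were higher and 1 lower, beside 9.93% and 9.37% of all tested genes. The higher count was 1 without control replicate 1 or control replicate 2, and 2 without YSJZD replicate 1 or YSJZD replicate 3. Itgb4, the chain particular to hemidesmosomes and named here after its values were seen, was at 6.25 ± 2.59, 64.7 ± 28.2 and 20.3 ± 8.84 CPM (3.37 ± 0.43 with cisplatin, adjusted p = 0.000119).

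Of 16 epithelial transcription factors 9 rose and 4 fell with cisplatin, where 28.6% and 26.0% of all tested genes did. Klf6, an injury-induced zinc finger factor, rose from 27.5 ± 5.35 to 578 ± 254 CPM (4.39 ± 0.35, adjusted p = 7.42e-06), and Hnf4a, which maintains proximal tubule identity, fell by 2.01 ± 0.21 on the log2 scale (adjusted p = 3.16e-05). With YSJZD against cisplatin 3 were higher, Hnf4a among them (1.33 ± 0.20, adjusted p = 0.00106), and 5 lower, Klf6 among them (-1.65 ± 0.31, adjusted p = 0.00324), with 3 lower without YSJZD replicate 1. The shares over all tested genes there were 17.4% higher and 18.0% lower. Pax8, a nephron lineage factor, was at 302 ± 141 CPM with cisplatin against 135 ± 14.6 CPM (1.16 ± 0.31, adjusted p = 0.00878).

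Of 10 tested genes of the epithelial-mesenchymal transition list, 6 rose with cisplatin and none fell, and with YSJZD 5 were lower than with cisplatin and none higher. Over all tested genes 28.6% rose and 26.0% fell with cisplatin, and 18.0% were lower and 17.4% higher with YSJZD. The list holds markers of both states, and both were among the risers. Fn1, fibronectin, rose by 2.72 ± 0.40 (adjusted p = 0.000265), or 2.09 without cisplatin replicate 2. The epithelial genes Cdh1, E-cadherin (0.94 ± 0.22, adjusted p = 0.00442), and Epcam (1.10 ± 0.25, adjusted p = 0.00341) rose too, and the tight junction gene Ocln was at 0.31 ± 0.19 (adjusted p = 0.206). None of the 10 was called between YSJZD and control, beside 19.3% of all tested genes. In that comparison 1 was higher without cisplatin replicate 2, and 1 lower without cisplatin replicate 3 or control replicate 2. Fn1 differed there by -0.03 ± 0.38.

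For each gene the 3 tested genes with the most similar pattern were found by Pearson's r of log2 CPM over the 9 libraries, which share 3 group means, so that r mainly follows the groups and is given as a description. For Krt8 they were Serpinb6a (0.993), Casc3 (0.990) and Cdh17 (0.989), and for Krt18 Capn2 (0.995), St3gal2 (0.994) and Mef2d (0.992). For Krt19 they were Hoxb4 (0.985), Sprr1a (0.982) and Pacs1 (0.980), for Krt20 Egr1 (0.993), Rap2b (0.993) and Osmr (0.992), and for Vim Gja1 (0.993), Isg20 (0.989) and Cxcl3 (0.988). Krt7 had lower best matches, Slc38a3 (0.946), Tiam2 (0.940) and Nfatc2 (0.925). Its median r with the other 5 genes was 0.589, where that of each of the others lay between 0.889 and 0.919.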

How the data were processed

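RNA sequencing of 9 kidney cortex libraries was analysed from 1 deposited table of 58075 RefSeq transcripts. Per the file headers its first columns are read counts, and per the submitters' processing notes they come from RSEM 1.3.1, so they were treated as the authors' expected counts; the notes also name DESeq2 1.4.5 and GRCh38, a human build. Neither an aligner nor a mouse build is given in the sources used here. The second set of deposited columns was taken as FPKM, inferred from the values. Expected counts were summed per Entrez gene and rounded (16.5% to 19.3% of gene counts per library were not whole), and symbols came from RefSeq's GRCm38.p6 table for 17847 of 17963 genes.

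All 9 libraries were fitted in edgeR 4.0.16 (R 4.3.3) with filterByExpr, TMM factors of 0.855 to 1.105, group as the only term and Benjamini-Hochberg adjustment over 13954 genes; 4009 genes were filtered out. The code of the fit was tried on simulated counts with far fewer changed genes than were called here, none of them at low counts. That trial does not cover the scaling or the low-count genes of these data. The standard error is the size of the log2 fold change divided by the square root of F. Ratios used log2(FPKM + 0.01).

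Other settings tried were library totals or DESeq2 size factors as scaling, no filter or one of 5 CPM in 3 libraries, limma-voom (limma 3.58.1) or DESeq2 1.42.0 as the test, a block for replicate number, a fit on 6 libraries, leaving out 1 library each time, and for ratios CPM or a pseudocount of 0.1; a prior count of 2 and the recount of lists were added after seeing the data. The genes and lists were chosen with earlier results of these data known. Named from each list were the 4 genes with the highest mean CPM (8 for other keratins), apart from genes said to be named after their values were seen. Not every gene this rule gives is reported here.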

Additional observations from a re-analysis of the deposited data

How the results depend on the processing

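Of the alternative values for the 6 genes, 305 kept direction and side of the threshold, 11 passed it newly, 6 no longer passed and 2 turned sign. Krt7 with cisplatin was called at 0.84 with library totals, and over left-out libraries ranged from 0.41 to 0.80. Krt7 between YSJZD and cisplatin ranged from -0.22 to 0.27 over left-out libraries, and was negative without cisplatin replicate 3 (-0.14) and without YSJZD replicate 1 (-0.22). Krt8 between YSJZD and control was called with library totals (0.93), no filter (0.74), DESeq2 (0.72), the 6-library fit (0.76) and the replicate block (0.69), and ranged from 0.47 to 0.89 over left-out libraries. Krt18 there ranged from 1.38 to 2.07 over left-out libraries, and Krt19 from 1.24 to 2.25, with Krt19 not called in limma-voom (1.80) or with the replicate block (1.79, adjusted p = 0.0746). The ratio Krt19/Krt18 turned sign with cisplatin without control replicate 1 (-0.00059, up to 0.97 over left-out libraries), and for YSJZD against control without control replicate 1 (-0.33, up to 0.50 over left-out libraries) or YSJZD replicate 2 (-0.01).

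The count of all genes called between YSJZD and control was 2694 and ranged from 1607 (without control replicate 1) to 3138 over left-out libraries, with 1699 without control replicate 2. With library totals as the only scaling the median over all genes moved to 0.27 for cisplatin against control, with 5183 higher and 2656 lower calls in place of 3987 and 3629, and to 0.20 for YSJZD against control, with 2394 and 780 in place of 1386 and 1308. Same-numbered libraries of different groups deviated together by no more than r = 0.092 (lowest -0.197). With 3 libraries a group this cannot show whether the numbers pair the samples, and the labels do not say. The replicate block gave 7348, 4590 and 2367 calls in the 3 comparisons. Depth limits Krt20, Krt12 and Krt19 in control, where few or no reads were counted.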

Other observations

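Small heat shock proteins and 14-3-3 proteins that bind keratin and vimentin filaments, and caspases that cut Krt18, formed a list of 15 genes, and the genes named here were picked after their values were seen. Of these 6 rose and 2 fell with cisplatin, and 1 was higher and 6 were lower with YSJZD than with cisplatin. These are 8 and 7 of 15 genes, beside 54.6% and 35.4% of all tested genes called in the same comparisons, so the first is near the share over all genes. The 1 higher call was lost without cisplatin replicate 1, cisplatin replicate 2, YSJZD replicate 1 or YSJZD replicate 3. Hspb1, which encodes a small heat shock protein, was at 10.4 ± 3.44 CPM in control, 484 ± 301 CPM with cisplatin and 47.4 ± 25.4 CPM with YSJZD (5.54 ± 0.55 and -3.35 ± 0.49 on the log2 scale, adjusted p = 2.54e-05 and 0.000874 in edgeR). Cryab, alpha B-crystallin, was at 46.8 ± 33.7, 500.0 ± 129 and 88.4 ± 25.8 CPM (3.42 ± 0.47 and -2.50 ± 0.45). Sfn, the epithelial 14-3-3 sigma protein, was at 1.52 ± 0.186, 42.1 ± 20.4 and 10.8 ± 5.78 CPM (4.78 ± 0.47 and -1.97 ± 0.39). Ywhaz, a widely expressed 14-3-3 protein, was at 700.0 ± 7.58, 708 ± 128 and 602 ± 16.0 CPM and was not called. The caspase gene Casp6 was at 16.0 ± 0.1, 18.5 ± 1.23 and 17.0 ± 1.16 CPM and was not called. The count of fallers with cisplatin was 0 without cisplatin replicate 3, YSJZD replicate 3 or control replicate 1, and 1 without cisplatin replicate 2, YSJZD replicate 2 or control replicate 3.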
